A study of Schizosaccharomyces pombe with 4 samples.

Results

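The fork-head factors of fission yeast and a regulator of premeiotic S phase were followed in cells deleted for red2 and in wild-type cells. The members were the array features whose deposited description holds the word fork-head, forkhead or fork head, which gave 5, and the 1 feature described as a regulator of pre-meiotic DNA synthesis. These are 6 of the 4997 features of the array. The cells were Schizosaccharomyces pombe of a strain labelled as lacking the red2 gene (SP744) and of a wild-type strain (FY12806). Cultures of both strains grew logarithmically in rich medium with yeast extract, glucose and adenine at 30 °C, which is vegetative growth. No other allele, age of culture or mating type is given in the labels. Total RNA labelled with Cy3 was hybridised to 1-colour oligonucleotide arrays, 2 per group.

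The array descriptions do not name these genes by symbol. The description of each fork-head transcription factor was therefore set against the reference gene table, and in 4 cases exactly 1 of the genes mei4, sep1, fkh2 and fhl1 lay between the same flanking named genes. For example, the feature on chromosome II at 1431572 to 1433125 lies on the array between a cdc2 kinase homologue and actin, and mei4 lies in the reference table between cdk9 and act1. The premeiotic regulator lies between ypt1 and coq8, the interval that holds rep1. The symbols used here are these assignments. Between the genes that flank the fifth fork-head feature, described as a forkhead nuclear signalling domain protein, none of the 4 symbols was found, and it keeps its description. That wording resembles the one used for the fork-head-associated domain, a module that binds phosphorylated proteins and is distinct from the DNA-binding fork-head domain.

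Fork-head proteins bind DNA through a winged-helix domain. In fission yeast Mei4 is the meiotic member of the family and switches on genes of the meiotic divisions and of spore formation, while Fkh2 and Sep1 control genes that are transcribed periodically around mitosis and cell separation. Fhl1 is named after a budding yeast protein that acts at ribosomal protein genes. Rep1 is a zinc-finger protein that works with MBF, the factor of the G1/S transition built from Cdc10, Res1 and Res2, and is needed for DNA synthesis before meiosis. The mei4 message is known to be kept low in vegetative cells by an RNA elimination pathway that recognises meiotic transcripts.

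Intensities are those the authors deposited, on which log2 was taken, and the 2 blocks of values of each gene were averaged on each array. Median intensities were 22141.0 and 22158.1 on the deletion arrays and 21231.7 and 21304.1 on the wild-type arrays, and the highest value was 65027.6. Arrays of a group correlated with r = 0.9964 (deletion) and r = 0.9975 (wild type) across genes, against 0.9338 to 0.9447 between groups. The free text of deletion replicate 2 mentions red3 where its title and strain say red2, and values without that array are given beside the members and where a list count or shift moves. The column headers carry an array code whose leading number differs between the genotypes and is shared within each. The labels do not say what that number stands for, and whatever it marks cannot be told apart from genotype. Whether replicate arrays are separate cultures is not said in the labels, and p-values then cover no more than array-to-array spread, possibly technical. No table used here ties red2 to an array feature, so the deleted gene was not looked up.

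The meiotic members, mei4 and rep1, were several times higher in the red2 deletion. The fork-head genes known from vegetative cells differed by at most 1.22-fold. The wild-type intensities of fkh2, sep1 and fhl1 ran from 24466 to 38817, and the highest deposited value was 65027.6. Rises as large as those of mei4 or rep1 would have passed that value and could not have been seen for these genes. Of the 6 features, 4 were higher (limma, Benjamini-Hochberg adjusted p under 0.05 over all 4997 features), 0 were lower and 2 did not pass. Over all features 34.0% were called higher and 29.8% lower, so the count of calls among the members is read against a high background. Non-overlapping groups with a level at least 2-fold higher in the deletion were seen for 2 of the 6 members, against 2.72% of all features. Members and lists were chosen with earlier results of these data known. Such shares, here and for the lists below, therefore describe and do not test. The median log2 fold change was 0.27 over the 6 members and 0.01 over all features. The median of the members lies between fhl1 (0.24) and fkh2 (0.29), which went to -0.01 and 0.04 with the gene length trend removed. In bulk RNA, a higher level in every cell and a high level in a few cells cannot be told apart.

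**Figure D1:**
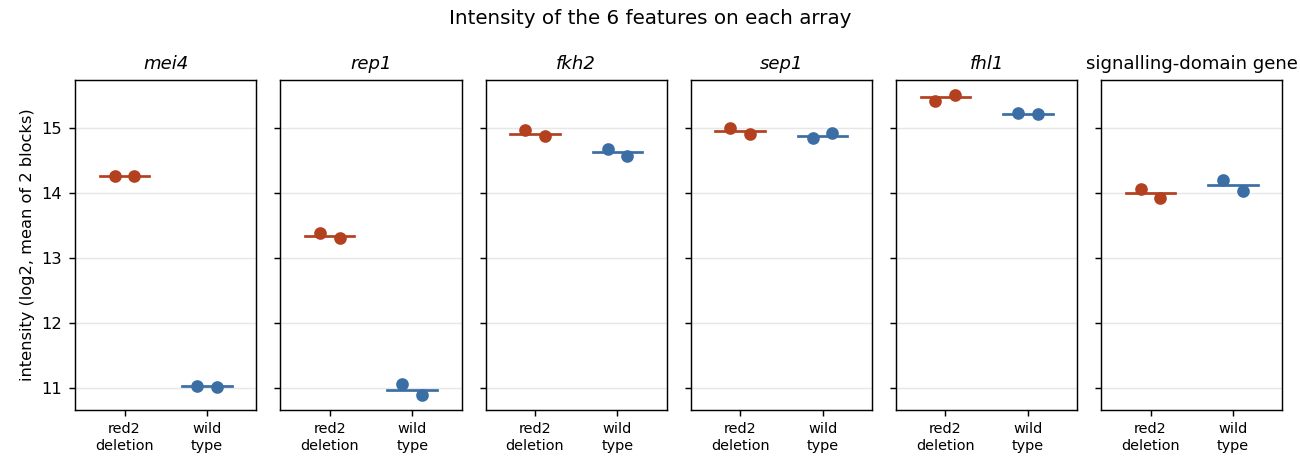
Log2 intensity (mean of 2 blocks) of the 6 features on each array, with the red2 deletion arrays left of the wild-type arrays in each panel, points for arrays and bars for group means. The deletion points of mei4 and rep1 lie near 14.26 and 13.34, far above the wild-type points near 11.02 and 10.97, and the points of sep1 and of the signalling-domain gene overlap between groups.

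Expression of mei4 stood at 14.26 and 14.26 on the log2 scale on the deletion arrays, against 11.03 and 11.01 on the wild-type arrays. On the linear scale these are intensities of 19626 and 19583 in the deletion and 2089 and 2063 in wild type. The deletion arrays agreed to within 0.003 and the wild-type arrays to within 0.018, and the groups were separated by 3.23. The difference of 3.24 ± 0.05 (SE, 2 arrays per group) on the log2 scale is 9.44-fold, with a 95% interval of 8.72 to 10.2 (limma adjusted p = 2.41e-06). This was the fifth highest fold change of the 4997 features. The single blocks gave 3.18 and 3.30, so each block shows the difference alone.

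The log2 level of rep1 (chromosome II, 2936244 to 2937662) was 13.38 and 13.31 on the deletion arrays, against 11.06 and 10.89 on the wild-type arrays. The intensities were 10657 and 10143 in the deletion and 2131 and 1897 in wild type. The lowest deletion value lay 2.25 above the highest wild-type value, and the larger gap between replicates was 0.17, in wild type. The level rose 5.17-fold in the deletion, by 2.37 ± 0.07 (limma adjusted p = 1.78e-05), with a 95% interval of 4.58 to 5.84 for the fold. It ranked at place 13 of all features. Without deletion replicate 2 the log2 fold changes were 3.24 for mei4 and 2.41 for rep1.

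Among the fork-head genes of vegetative cells, fkh2 (chromosome II, 4199520 to 4201740) had log2 levels of 14.97 and 14.88 in the deletion, against 14.68 and 14.58 in wild type. The groups did not overlap, but the lowest deletion value exceeded the highest wild-type value by only 0.19, and groups did not overlap for 84.6% of all features. The level of fkh2 was 1.22-fold higher, by 0.29 ± 0.06 (limma adjusted p = 0.00755). On deletion replicate 2 the blocks of fkh2 stood apart by 0.39 on the log2 scale, at 15.08 and 14.68, which is more than the difference between the groups. The first block alone gave a log2 fold change of 0.43 (limma adjusted p = 0.00226), and the call was lost with the second block alone (0.15, limma adjusted p = 0.214). Without deletion replicate 2 the log2 fold change was 0.34.

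The log2 level of fhl1 (chromosome I, 3632159 to 3634390) was 15.43 and 15.52 in the deletion, against 15.24 and 15.22 in wild type. These are intensities of 44283 and 46860 in the deletion and 38817 and 38255 in wild type, toward the upper end of the deposited values. The fold was 1.18, with a log2 fold change of 0.24 ± 0.05 (limma adjusted p = 0.00855). Without wild-type replicate 2 the call of fhl1 was lost (log2 0.23, limma adjusted p = 0.0534), and without deletion replicate 2 the log2 fold change was 0.20.

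The log2 level of sep1 (chromosome II, 3092573 to 3094564) was 15.01 and 14.91 in the deletion, against 14.85 and 14.93 in wild type, and the groups overlapped. The log2 difference of 0.07 ± 0.06 did not pass (limma adjusted p = 0.349), and the 95% interval of the fold ran from 0.947 to 1.16. Its blocks on deletion replicate 2 stood apart by 0.35. The single blocks gave -0.02 and 0.16, and without deletion replicate 2 the value was 0.12. The signalling-domain gene (chromosome II, 1819272 to 1820177) stood at 14.07 and 13.93 in the deletion and 14.20 and 14.04 in wild type. It too overlapped between groups, with a log2 difference of -0.12 ± 0.08 (limma adjusted p = 0.226) and a 95% interval of the fold from 0.808 to 1.05. Without deletion replicate 2 its value was -0.05.

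Fold changes on these arrays shift with gene length, and the vegetative fork-head genes are longer than the meiotic members. The spans are 2221 bp for fkh2, 1992 bp for sep1 and 2232 bp for fhl1, against 1554 bp for mei4, 1419 bp for rep1 and 906 bp for the signalling-domain gene. Removing the length trend lowered the log2 fold change by 0.25 for fkh2, 0.21 for sep1 and 0.26 for fhl1, and by 0.14 for mei4 and 0.12 for rep1. The values then were 3.09 for mei4 and 2.25 for rep1, both still called. In all 2 of the 6 members were then called higher and 0 lower, against 28.6% of all features higher and 35.2% lower. For fkh2 the log2 fold change was 0.04 (limma adjusted p = 0.581) and for fhl1 -0.01 (0.844), so neither call held. The value of sep1 turned to -0.15 and remained short of the threshold (0.0639), and that of the signalling-domain gene was -0.01.

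**Figure D2:**
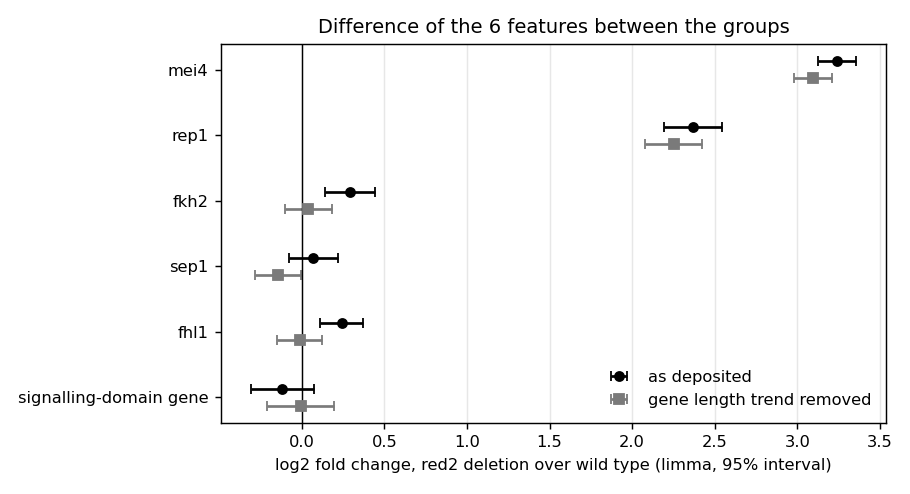
Log2 fold change of the 6 features, red2 deletion over wild type, with limma's 95% intervals, as deposited (circles) and with the gene length trend removed (squares). The values of mei4 and rep1 stay above 2 either way, while fkh2 and fhl1, at 0.29 and 0.24 as deposited, lie at 0.04 and -0.01 once the trend is removed.

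The contrast between meiotic and vegetative members was also taken within each array. The level of mei4 minus that of fkh2 was -0.71 and -0.62 on the log2 scale in the deletion, against -3.66 and -3.57 in wild type, a shift of 2.95. Against sep1 the shift of mei4 was 3.17 and against fhl1 3.00, and for rep1 the shifts were 2.08 against fkh2, 2.30 against sep1 and 2.13 against fhl1. Without deletion replicate 2 the shifts of mei4 were 2.90, 3.12 and 3.04 against fkh2, sep1 and fhl1, and those of rep1 were 2.07, 2.28 and 2.21. In all 6 pairs compared the deletion arrays lay above the wild-type arrays. Each shift is the difference of log2 fold changes already given, so the pairs are no separate support. The limit of the scale given above for fkh2, sep1 and fhl1 applies to each shift as well. The exact two-sided permutation test gave p = 0.333 for each pair, and 0.333 after adjustment over the 6 pairs, which is the smallest value that 2 arrays against 2 allow. Absolute differences between probes of different genes carry no meaning of their own, and the change of each difference between the groups is what these values show.

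None of the 8 array genes nearest to mei4 and rep1 on the chromosome was 2-fold higher in the deletion. For some of them the scale left no room for such a rise. The cdc2 kinase homologue before mei4 had log2 levels of 15.34 and 15.41 in the deletion and 15.47 and 15.45 in wild type (log2 fold change -0.09 ± 0.05, limma adjusted p = 0.18). Actin, a cytoskeletal protein encoded just after mei4, stood at 15.86 and 15.90 in the deletion and 15.92 and 15.90 in wild type, a log2 fold change of -0.03 ± 0.05 (limma adjusted p = 0.596). Both lie near the top of the scale, where a 2-fold rise would have passed the highest deposited value of 65027.6. One gene further out, a WD repeat protein rose by 0.25 ± 0.05 and an alpha glucan synthase, an enzyme of the cell wall, by 0.37 ± 0.05.

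On either side of rep1, a putative glucan 1,3-beta-glucosidase fell by 0.27 ± 0.07 and a putative mitochondrial membrane protease subunit by 0.30 ± 0.05. The protease subunit stood at 15.16 and 15.17 in wild type, where the scale left no room for a 2-fold rise. Next to them, a mitochondrial L4-like ribosomal protein did not pass (0.04 ± 0.05), and a conserved gene of unknown function at 2931274 to 2933250 rose by 0.87 ± 0.06. Around fkh2 and sep1 no neighbour was higher by the test, and the lowest values were -0.83 ± 0.07 for a very hypothetical feature near fkh2 and -0.28 ± 0.09 for a putative guanine nucleotide exchange factor after sep1. After fhl1, which itself differed little, a hypothetical feature stood at 8.55 and 8.40 in the deletion and 6.98 and 7.28 in wild type, low on the scale. It rose by 1.34 ± 0.11, and the next gene, the regulatory chain of cAMP-dependent protein kinase, by 0.92 ± 0.05. The neighbours of the signalling-domain gene lay between -0.46 ± 0.07 and 0.15 ± 0.08.

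**Figure D3:**
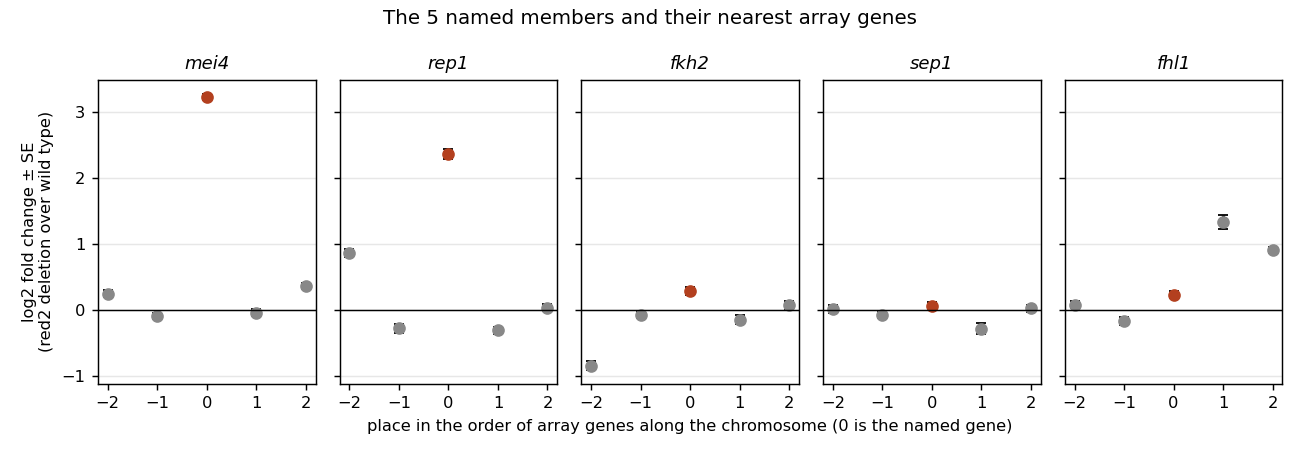
Log2 fold change (± SE) of mei4, rep1, fkh2, sep1 and fhl1 (place 0) and of the 2 nearest array genes on either side, in order along the chromosome. The 4 neighbours of mei4 lie between -0.09 and 0.37 around its 3.24, and those of rep1 between -0.30 and 0.87 around its 2.37.

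Likeness of pattern was measured as the Euclidean distance over the 4 arrays of log2 deviations from the wild-type mean. The features most like mei4 were a hypothetical protein gene on chromosome III at 2373011 to 2373693 (distance 0.242), a gene of uracil salvage described as a probable uracil phosphoribosyltransferase (0.26), and a very hypothetical feature on chromosome I (0.68). Their log2 fold changes were 3.07, 3.22 and 3.69. The features most like rep1 were the longer feature of the meiotic cohesin gene rec11 (distance 0.14), a very degraded permease (0.189) and an RNA-binding protein on chromosome II (0.193). The log2 fold changes of these features were 2.42, 2.24 and 2.38. With 2 groups of 2 arrays, likeness reflects mainly the size of the fold change.

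Rep1 works with MBF, and the array features of all 3 MBF subunits were higher in the deletion, with smaller changes than rep1. Expression of res2, the subunit that pairs with Cdc10 in meiosis as well as in the mitotic cycle, was 13.14 and 13.04 (log2) in the deletion and 12.14 and 12.19 in wild type. It rose 1.90-fold, by 0.92 ± 0.06 (limma adjusted p = 0.0001). The level of cdc10, the common subunit, was 14.15 and 14.20 in the deletion against 13.44 and 13.50 in wild type, a rise of 0.71 ± 0.05. For res1, the subunit that acts mainly in the mitotic cycle, values were 14.87 and 14.81 in the deletion and 14.33 and 14.40 in wild type, a rise of 0.48 ± 0.05. The groups did not overlap for any of these 3 genes, as for 84.6% of all features. With the length trend removed res2, cdc10 and res1 were still called higher, at 0.69, 0.44 and 0.26. The list names 8 genes, of which 4, rep1 included, could be tied to features, and all 4 were higher, where 34.0% of all features were.

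Genes that MBF transcribes were matched for 4 of 12 listed. Of these 2 rose and 2 fell, with a median log2 fold change of 0.35, where 34.0% of all features were higher and 29.8% lower. With the length trend removed 2 were again higher and 2 lower, with cdt1 at -0.27 and cig2 at -0.23. The median was then 0.22, where 28.6% of all features were higher and 35.2% lower. The mitotic inhibitor mik1 stood at 14.28 and 14.11 in the deletion and 13.32 and 13.36 in wild type, and the cohesin gene rad21 at 15.46 and 15.24 in the deletion and 14.32 and 14.51 in wild type. They rose by 0.86 ± 0.07 and 0.93 ± 0.10. The replication licensing gene cdt1 (-0.17 ± 0.05) and the cyclin gene cig2 (-0.17 ± 0.05) fell, and neither fall passed without wild-type replicate 1 or without wild-type replicate 2.

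Machinery of DNA replication was taken by words of the description. Of 30 such features 15 rose, 7 fell and 8 did not pass, with a median of 0.18 against 0.01 for all features, of which 34.0% were higher and 29.8% lower. Among the 4 with the smallest p, an activator 1 (replication factor C) subunit rose by 0.85 ± 0.05, subunit 3 of the origin recognition complex by 0.60 ± 0.05 and DNA polymerase alpha by 0.64 ± 0.05, while cdc24, a replication factor, fell by 0.62 ± 0.06. With the length trend removed 11 were higher and 8 lower, and the median turned to -0.02. Over all features that setting called 28.6% higher and 35.2% lower, with a median of -0.04. Without wild-type replicate 1 the count that fell was 3, and without deletion replicate 2 the count that rose was 14.

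Genes listed for Mei4 and middle meiosis were called in part. The list was not limited to genes that Mei4 is known to switch on. Of 23 listed genes of Mei4 and middle meiosis, 6 were matched, 2 of them rose, 0 fell and 4 missed the threshold, with a median of 0.19, where 34.0% of all features were higher. The septin gene spn5, whose product acts at the forespore membrane, stood at 13.99 and 13.85 in the deletion and 13.03 and 13.16 in wild type, a rise of 0.82 ± 0.07. The gene meu14, needed for forespore membrane assembly, stood at 12.25 and 12.22 in the deletion and 11.71 and 11.67 in wild type, a rise of 0.55 ± 0.05. Those that did not pass were the septin gene spn2 (0.13 ± 0.05), the spore protein gene isp3 (0.25 ± 0.11), spo20, which encodes a phospholipid transfer protein (-0.11 ± 0.06), and spo6, which encodes the partner of a meiotic kinase (0.03 ± 0.07). Of the 6, 0 were at least 2-fold higher, and the difference between mei4 and these genes was not tested. The groups overlapped for spo6. With the length trend removed isp3 was higher too (0.49, limma adjusted p = 0.00394), so that 3 of the 6 were called, with a median of 0.27. Of all features 28.6% were then higher, with a median of -0.04.

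Early meiosis genes, the class that acts around premeiotic S phase and recombination, were higher in 7 of 8 matched features and lower in 1, with a median of 1.36, and 5 of the features, 2 of them overlapping features of rec11, were at least 2-fold higher. Over all features 34.0% were higher, and 2.72% were at least 2-fold higher without overlap between groups. Within this list, the features nearest to rep1 in size of change were the longer rec11 feature (log2 fold change 2.42 ± 0.06), ssm4 (2.23 ± 0.05) and mek1 (2.18 ± 0.05). The shorter rec11 feature rose less, by 1.57 ± 0.06. The gene ssm4 encodes a protein of meiotic nuclear movement, and mek1 a meiotic kinase. The lower one, rec14 (-0.23 ± 0.07), lost its call without wild-type replicate 2, with the first block alone and with the length trend removed. Of 9 meiotic commitment genes 4 were matched, and mei2, which encodes an RNA-binding protein that starts meiosis, rose by 0.77 ± 0.07. The gene ste4, which encodes an adaptor of the mating MAP kinase cascade, fell by 0.75 ± 0.09. A Ras activator gene of mating, ste6, rose by 0.28 ± 0.06, and the cell differentiation gene rcd1 stood at -0.06 ± 0.06. The call of ste6 was lost with the length trend removed, at -0.02.

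Mitotic genes that Fkh2 and Sep1 are known to control were matched for 3 of 18 listed. The polo kinase gene plo1 stood at 14.90 and 14.74 in the deletion and 14.24 and 14.31 in wild type, a rise of 0.54 ± 0.07. The level of slp1, an activator of the anaphase-promoting complex, rose by 0.25 ± 0.05, and mid1, which positions the division ring, missed the threshold (0.12 ± 0.05). The 2 of 3 called higher stand beside 34.0% of all features. Once the length trend was removed, 1 was higher and 1 lower, where 28.6% of all features were higher and 35.2% lower. The list for nuclear RNA elimination had 0 matched genes and was not analysed here. Unmatched list members may be among features with other descriptions, so the counts do not speak for whole lists.

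**Figure D4:**
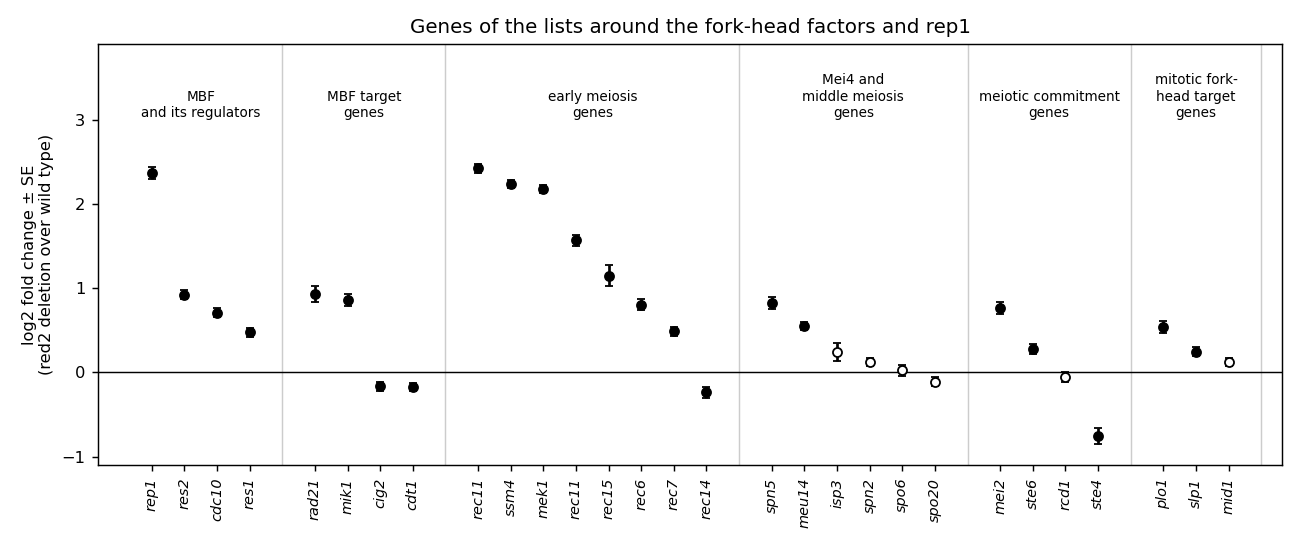
Log2 fold change (± SE, red2 deletion over wild type) of the matched genes of 6 lists, with filled points for limma adjusted p under 0.05 and open points otherwise. All 4 MBF features and 7 of 8 early meiosis features are filled and above 0, and 4 of 6 features of Mei4 and middle meiosis are open. Over all features 34.0% were called higher and 29.8% lower. The gene rec11 has 2 overlapping features.

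Other features whose description holds the words transcription factor were set beside the members. The 35 such features include mei4, fkh2 and sep1. In this group 13 rose and 5 fell, 17 did not pass, with a median of 0.08, where 34.0% of all features were higher and 29.8% lower. Without deletion replicate 2 the counts were 14 and 6. Of the 35, only mei4 was at least 2-fold higher. After mei4, those with the smallest p were a feature described as an SRF-type factor (0.84 ± 0.05), a WD repeat subunit of an RNA polymerase III factor (0.73 ± 0.05) and a subunit of factor IIIB (0.70 ± 0.05). With the length trend removed 11 of the 35 were higher and 8 lower, and the median turned to -0.07. Of all features 28.6% were then higher and 35.2% lower, with a median of -0.04.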

How the data were processed

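The authors deposited linear intensity values made with RMA, as the submitters' processing notes say without version or steps. The authors also deposited the ratio of deletion to wild-type intensity for each pair of arrays, and all 9994 values of each array were equal in both kinds of deposited table. Each feature has 2 blocks of values per array, averaged here as log2; what the blocks are was not given in the sources used here. Coordinates are as deposited, with no build named.

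Symbols came from words of the description that matched a reference table of assembly ASM294v3 by symbol and chromosome, with a start offset within 10 kb of that of at least 2 nearby matches, which named 383 of 4997 features. The members' symbols rest on description and flanking genes. No sequence was printed, as none was in the sources used here.

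The test was limma 3.58.1 (R 4.3.3; lmFit, eBayes) fitting genotype alone over 4 arrays, two-sided, Benjamini-Hochberg adjusted over all features, threshold 0.05, with no filter or pseudocount. Errors after ± are limma's standard errors. On simulated data with 200 of 4997 genes changed, 100% of changes of 1.5, 2, 4 and 8 times were recovered. The noise was independent and normal with limma's fitted spread. Smaller changes, like those of fkh2 and fhl1, were not simulated. Same-numbered arrays did not deviate together (r = -0.041 over 4997 features), so the numbers were not taken as pairs. Members and lists were chosen with earlier results of these data known. Named were all members, the 2 nearest features on either side, the 3 features nearest in pattern to each member changed at least 2-fold, and up to 4 genes of each list by smallest p; further list genes were named after their values were seen. Alternatives were quantile normalization, median centring, no dim features (lowest 25%), the replicate block, the deposited pair ratios, adding 32 before log2, each array left out, a trend or robust prior, a single block, the length trend removed (loess, span 0.5), the longest of overlapping features, a threshold of 0.01, and 2-fold change. The number of arrays limits the precision.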

Additional observations from a re-analysis of the deposited data

How the results depend on the processing

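The log2 fold changes of mei4 (3.09 to 3.30) and rep1 (2.25 to 2.45) kept their direction and their call under every alternative that could be run. Both fall among the dimmest 25% of features, so the alternative without these gave no value for them. The fkh2 call was lost with the second block alone (0.154) and with the length trend removed (0.0396). The fhl1 call was lost without wild-type replicate 2 (0.231), and removing the length trend turned fhl1 to -0.0135. Leaving out single arrays, mei4 ran from 3.23 to 3.25, rep1 from 2.29 to 2.45, fkh2 from 0.240 to 0.345, fhl1 from 0.201 to 0.282, sep1 from 0.0172 to 0.122 and the signalling-domain gene from -0.198 to -0.0368. The lone array of a reduced group is taken to vary as the other group does. The features called higher (1699) and lower (1487) went to 136 and 127 with a 2-fold limit. Centring arrays on their median turned the balance, to 1478 higher and 1788 lower, as did removing the length trend (1427 higher, 1761 lower). Left-out arrays gave 1424 to 1729 higher and 1216 to 1594 lower. With the replicate block, 1674 were higher and 1466 lower, as with the pair ratios, and no call of a member changed; of the lists, the MBF targets that fell went to 1 in both fits.

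Without the dimmest features, the count higher was 2 for MBF, 1 for Mei4 and middle meiosis, 1 for early meiosis, 0 for meiotic commitment and 1 for ribonucleotide reductase. The count lower was 1 for MBF targets, 0 for meiotic commitment and 4 for DNA replication. Features with a mean log2 level up to 13.52 were absent from that fit, so its counts cover only the features kept. It kept only rec7 and rec14 of early meiosis, and cdc10 and res1 of MBF. With the length trend removed, the count higher was 1 for mitotic fork-head targets, 1 for meiotic commitment and 3 for septation, and the count lower was 1 for mitotic fork-head targets, 0 for early meiosis, 8 for transcription factors, 2 for ribonucleotide reductase and 2 for septation. With the first block alone, MBF targets had 1 lower, mitotic fork-head targets 1 higher and early meiosis 0 lower; with the second, MBF targets had 0 lower, transcription factors 2 lower, DNA replication 4 lower and septation 3 higher. Quantile normalization and median centring gave 1 lower for Mei4 and middle meiosis, quantile normalization and the trend prior 1 higher for ribonucleotide reductase, and centring 3 higher for septation. Leaving out single arrays, the count lower ran from 0 to 2 for MBF targets, 0 to 1 for Mei4 and middle meiosis, 0 to 1 for early meiosis and 3 to 7 for DNA replication. The count higher ran from 1 to 2 for mitotic fork-head targets and from 0 to 1 for ribonucleotide reductase. Beyond the removal of dim features, the cause of these moves was not tested.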

Other observations

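Among 7 features described by words of septation and cell separation, 5 rose, 1 fell and 1 did not pass, with a median log2 fold change of 0.23, where 34.0% of all features were higher and 29.8% lower. A feature described as required for septation had log2 levels of 13.73 and 13.87 in the deletion, against 13.01 and 13.06 in wild type, a rise of 0.76 ± 0.06 (limma adjusted p = 0.000231). The GTPase gene spg1, which encodes an inducer of septum formation, stood at 13.65 and 13.74 in the deletion and 13.95 and 14.01 in wild type and fell by 0.29 ± 0.06. With the length trend removed 3 of the 7 were higher and 2 lower, and the median turned to -0.02. Of all features 28.6% were then higher and 35.2% lower, with a median of -0.04. Without deletion replicate 2 the count that rose was 4.

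Neither chain of ribonucleotide reductase, the enzyme that makes precursors of DNA, was called higher in the main comparison, where 1 fell and 1 did not pass. The small chain stood at 15.10 and 15.36 in the deletion and 15.70 and 15.65 in wild type, and fell by 0.44 ± 0.09 (limma adjusted p = 0.00687). The large chain, at 15.66 and 15.62 in the deletion and 15.51 and 15.51 in wild type, did not pass (0.13 ± 0.05, limma adjusted p = 0.0558). It passed as higher with quantile normalization, without the dimmest features, with a trend prior, and without deletion replicate 2. With the length trend removed the large chain was called lower instead (-0.18, limma adjusted p = 0.0169), as was the small chain (-0.48, limma adjusted p = 0.00314). All the levels given lie near the top of the scale.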
